A study of Mus musculus with 12 samples.

Results

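The genes described here are the 33 genes of cholesterol synthesis, uptake and efflux that were listed by name, among 16389 genes measured in eGFP+ cells sorted from mouse spinal cord. All 33 were found in the table, and all 33 passed the filter on low values. The mice carried an Aldh1l1-EGFP transgene on a Swiss Webster background, in which the promoter of Aldh1l1, a folate enzyme of astrocytes, drives eGFP, and they were adult males. Non-injured mice (NI) had 3 libraries. After hemisection of the thoracic cord (HS), 3 libraries were made at 1 week and 2 more at 2 weeks. After full transection (FT), a single library was made at 1 week and 3 at 2 weeks. Each library was made from pooled animals, from a segment centered on the lesion or its equivalent in NI, and live cells were sorted before polyA RNA was amplified. The labels do not say that replicates came from separate animals, so p-values measure only the spread between these libraries.

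The libraries held 8270643 to 15562378 reads, and values are normalized counts, in which 1 read was worth 0.06117 to 0.1343. The summed normalized counts of 13 astrocyte markers ranged from 1531 to 11810, those of 12 oligodendrocyte markers from 54620 to 113000, and those of 15 microglia and macrophage markers from 739.8 to 11360. No marker of these 3 lists was at 0 in any library. Aldh1l1 itself ranged from 10.2 to 126.7 and Mbp, a myelin protein, from 6750 to 20280, so the libraries labelled as astrocytes also held oligodendrocyte transcripts. In such bulk libraries, fewer cells of a type and less RNA per cell cannot be told apart. NI replicate 1 and HS 1 week replicate 2 stood apart with the lowest microglia sums (739.8 and 796.9), against 5145 and 6757 in the other NI libraries and 2998 and 11360 in the other HS 1 week libraries. NI replicate 1 also had a pericyte and fibroblast sum of 6992, against 636.8 and 454.3 in NI replicates 2 and 3.

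Cholesterol is built from acetyl-CoA through mevalonate and squalene, and is a major component of myelin. When sterols are abundant, INSIG proteins hold SCAP and the SREBP transcription factors in the endoplasmic reticulum. When sterols are low, SREBP-2 is released and drives the synthesis enzymes and Insig1 itself. Liver X receptors (LXR) are bound by oxysterols and drive genes of cholesterol efflux. The brain and spinal cord make their own cholesterol, since lipoproteins of the blood do not cross the blood-brain barrier.

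The sequences before the start sites of 3 genes are shown as examples of efflux (Abca1), sterol feedback (Insig1) and synthesis (Hmgcs1) genes. Each is taken from RefSeq (GRCm38.p6), runs 5′ to 3′ on the strand of the gene, and ends before the annotated gene. Capitals mark motifs found by the search, chosen for each gene. In Abca1 (chr4:53159896-53160095, minus strand) they mark the E-box and an inexact DR4 element, the direct repeat that LXR binds. In Insig1 (chr5:28071212-28071362, plus strand) they mark the E-box, and in Hmgcs1 (chr13:119690151-119690350, plus strand) a sterol regulatory element with a CCAAT box on either side, which reads ATTGG because it lies on the opposite strand.
Abca1: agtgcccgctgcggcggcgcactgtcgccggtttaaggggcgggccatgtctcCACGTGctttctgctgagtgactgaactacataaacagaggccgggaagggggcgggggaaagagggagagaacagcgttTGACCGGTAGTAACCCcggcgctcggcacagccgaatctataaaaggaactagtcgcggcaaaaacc
Insig1: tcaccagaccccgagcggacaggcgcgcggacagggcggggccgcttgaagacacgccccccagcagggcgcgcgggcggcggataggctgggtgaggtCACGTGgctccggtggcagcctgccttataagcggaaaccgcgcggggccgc
Hmgcs1: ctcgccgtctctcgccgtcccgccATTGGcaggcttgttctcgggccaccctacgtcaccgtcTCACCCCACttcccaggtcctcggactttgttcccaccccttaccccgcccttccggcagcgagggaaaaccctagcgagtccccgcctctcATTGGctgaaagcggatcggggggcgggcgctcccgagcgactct

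Promoters of 25 of the 33 genes were found in the RefSeq table, and the 250 bases before each start were searched on both strands. CCAAT was present in 12 of 13 promoters of synthesis enzymes and in 19 of 25 promoters of all the listed genes, against 39.9% of 11960 genes. The sterol regulatory element TCACNCCAC was found only in Hmgcs1 among the 25, and in 1.23% of genes. The E-box CACGTG was found in 5 of 25 (Hsd17b7, Dhcr7, Scap, Insig1 and Abca1) and in 9.31% of genes. The DR4 element, AGGTCA repeated with any 4 bases between, with up to 3 mismatches, was found in 8 of 25 and in 18.7% of genes. The match in Abca1 lay 67 to 52 bases before the start, on the strand opposite to the gene, with 3 mismatches. The printed stretches of Insig1 (115 to 100 bases before the start) and Hmgcs1 (158 to 143 bases) each hold a DR4 match with 3 mismatches that is not in capitals, and the match in Insig1 shares 2 bases with the E-box. The other matches of these 4 motifs in the printed stretches do not overlap each other. A match describes the letters only.

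A gene was called differentially expressed (DE) when its adjusted p was below 0.05 and its groups differed by 2-fold or more. Tested with limma-trend, on log2 of counts normalized as above plus 1, 0 of the 33 genes were DE in any of the 4 comparisons with NI. Over all genes tested, this test called 0.0061% at HS 1 week, 0.0122% at HS 2 weeks, 0.452% at FT 1 week and 0.0427% at FT 2 weeks. At an unadjusted limma-trend p under 0.05, the genes numbered 4 at HS 1 week (12.1%, against 7.66% of all genes), 9 at HS 2 weeks (27.3%, against 7.49%), 8 at FT 1 week (24.2%, against 11.2%) and 10 at FT 2 weeks (30.3%, against 10.8%). The edgeR quasi-likelihood test also called 0 genes in each comparison, against 0.0061%, 0.0122%, 0.427% and 0.0244% of all genes. The edgeR likelihood ratio test on the recovered reads called 0, 2, 1 and 1 genes in the same order. Its calls over all genes were 0.433%, 0.488%, 1.67% and 1.71%. They were Lpl and Abca1 at HS 2 weeks, Abca1 at FT 1 week and Insig1 at FT 2 weeks. DESeq2 called 0, 2, 2 and 1 genes, adding Abcg1 at FT 1 week to these, against 0.568%, 0.703%, 2.56% and 2.2% of the genes it tested.

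**Figure D1:**
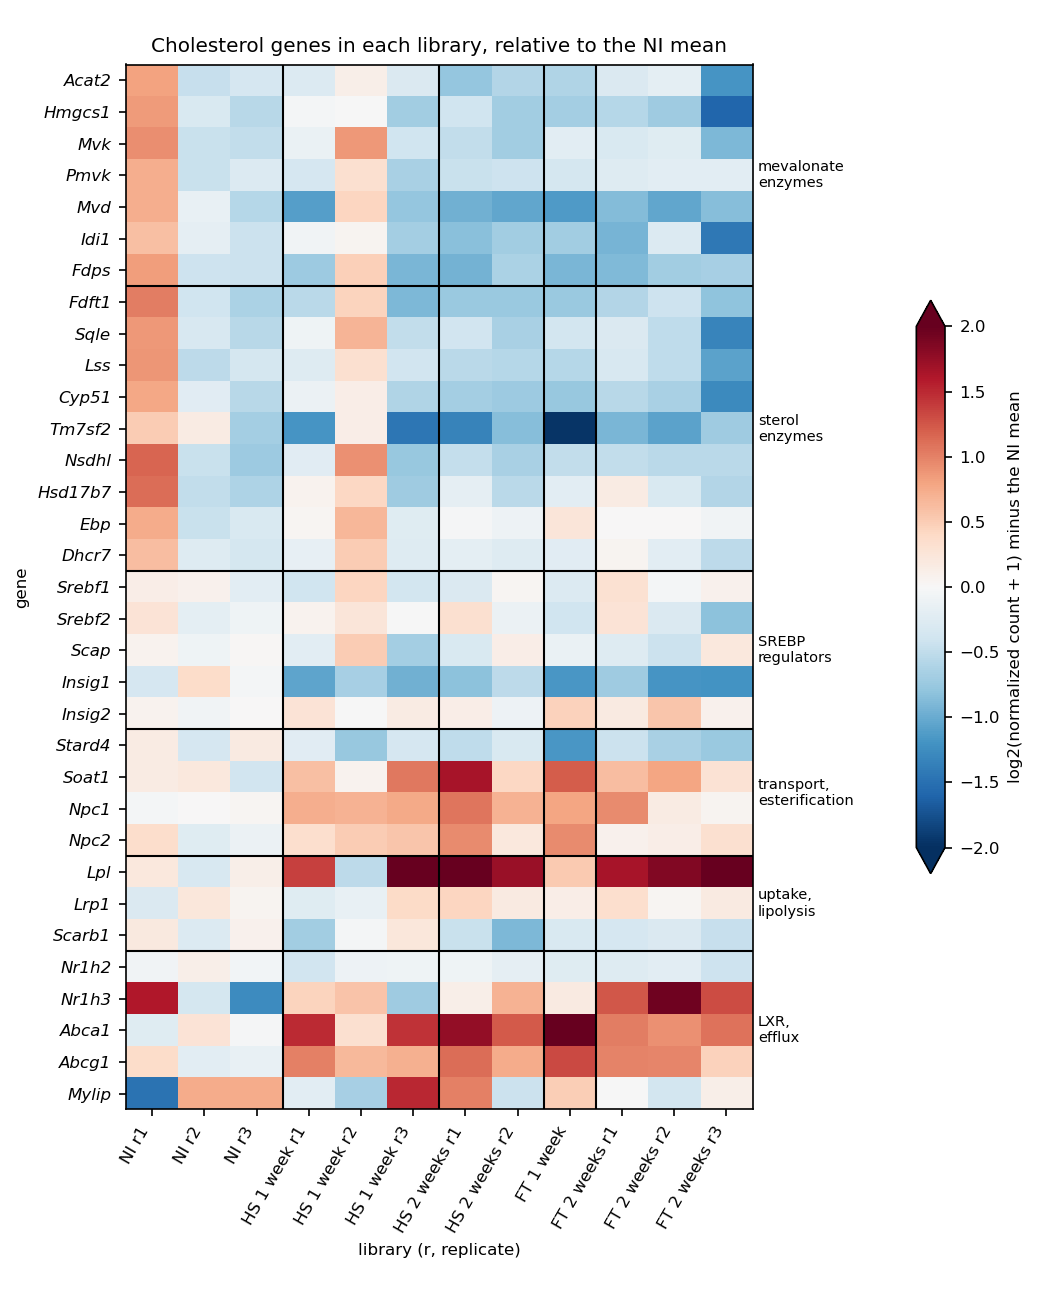
Each row is 1 of the 33 genes in the order of their roles, each column is 1 library, and the colour is log2 of the normalized count plus 1 minus the mean of the 3 NI libraries, cut at 2 in both directions. The 16 enzymes at the top are darkest red in NI replicate 1, Insig1 is blue in all 9 injured libraries, and Abca1 and Abcg1 are red in all 9.

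Abca1, Abcg1 and Npc1 were higher in all 9 injured libraries than in all 3 NI libraries, which held for 1.97% of all genes. Insig1 and Nr1h2 were lower in all 9, which held for 0.995% of all genes. The other 28 genes overlapped. When the columns were scaled to the same total, only Abcg1 stayed higher, against 0.958% of all genes, and Insig1 and Stard4 were lower, against 2.07%. Without NI replicate 1, Ebp and Npc2 joined the higher genes, against 7.24% of all genes, and the lower genes were again Insig1 and Nr1h2, against 7.4%. Without HS 1 week replicate 2, Soat1 and Lpl joined the higher genes (2.42% of all genes), and Mvd, Fdps and Tm7sf2 the lower genes (1.4%).

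Abca1 (chr4:53030787-53159895, minus strand) encodes the transporter that loads cholesterol onto lipid-poor apolipoproteins. In NI, its normalized counts were 27.1, 39.0 and 31.5. They were 92.5, 40.6 and 89.7 at HS 1 week, 110.9 and 76.3 at HS 2 weeks, 136.3 at FT 1 week and 66.2, 61.3 and 69.5 at FT 2 weeks. All injured libraries lay above NI, with HS 1 week replicate 2 just above the highest NI library. The limma-trend log2 fold changes were 1.09 ± 0.30 (SE) at HS 1 week, 1.49 ± 0.34 at HS 2 weeks, 2.05 ± 0.43 at FT 1 week and 1.00 ± 0.30 at FT 2 weeks. The limma adjusted p-values were 0.467, 0.429, 0.0755 and 0.347. The edgeR likelihood ratio test gave adjusted p-values of 0.107, 0.0188, 0.000619 and 0.12. Its call at HS 2 weeks was lost without any 1 of the NI libraries or without HS 2 weeks replicate 1, and its call at FT 1 week rests on the single library there. HS 1 week replicate 2 was also the injured library with the lowest microglia sum. With the log2 of the microglia sum as a covariate, limma-trend gave Abca1 log2 fold changes of 1.08, 1.38, 1.74 and 1.19, with adjusted p-values of 0.0364, 0.0138, 0.00784 and 0.0299. That model called 0.799%, 1.2%, 4.78% and 0.714% of all genes. Without NI replicate 1 the Abca1 log2 fold changes were 0.97, 1.37, 1.93 and 0.88.

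Abcg1 (chr17:31057675-31117988, plus strand) encodes the transporter that passes cholesterol to mature high-density lipoprotein. It was the most abundant of the LXR and efflux genes per length, at 79.0 normalized counts per kb of exon, against 6.76 for Abca1. Its normalized counts were 445.2, 297.9 and 313.0 in NI, 695.0, 543.7 and 568.6 at HS 1 week, 749.0 and 580.4 at HS 2 weeks, 870.6 at FT 1 week and 691.1, 685.7 and 479.3 at FT 2 weeks. The groups did not overlap, and the smallest gap was between NI replicate 1 and FT 2 weeks replicate 3. With limma-trend, log2 fold changes were 0.79 ± 0.24, 0.93 ± 0.27, 1.33 ± 0.34 and 0.82 ± 0.24 (SE) in the order given for Abca1. The limma adjusted p-values were 0.489, 0.488, 0.152 and 0.347. Without NI replicate 1, the Abcg1 log2 fold changes were 0.97, 1.11, 1.51 and 1.00.

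**Figure D2:**
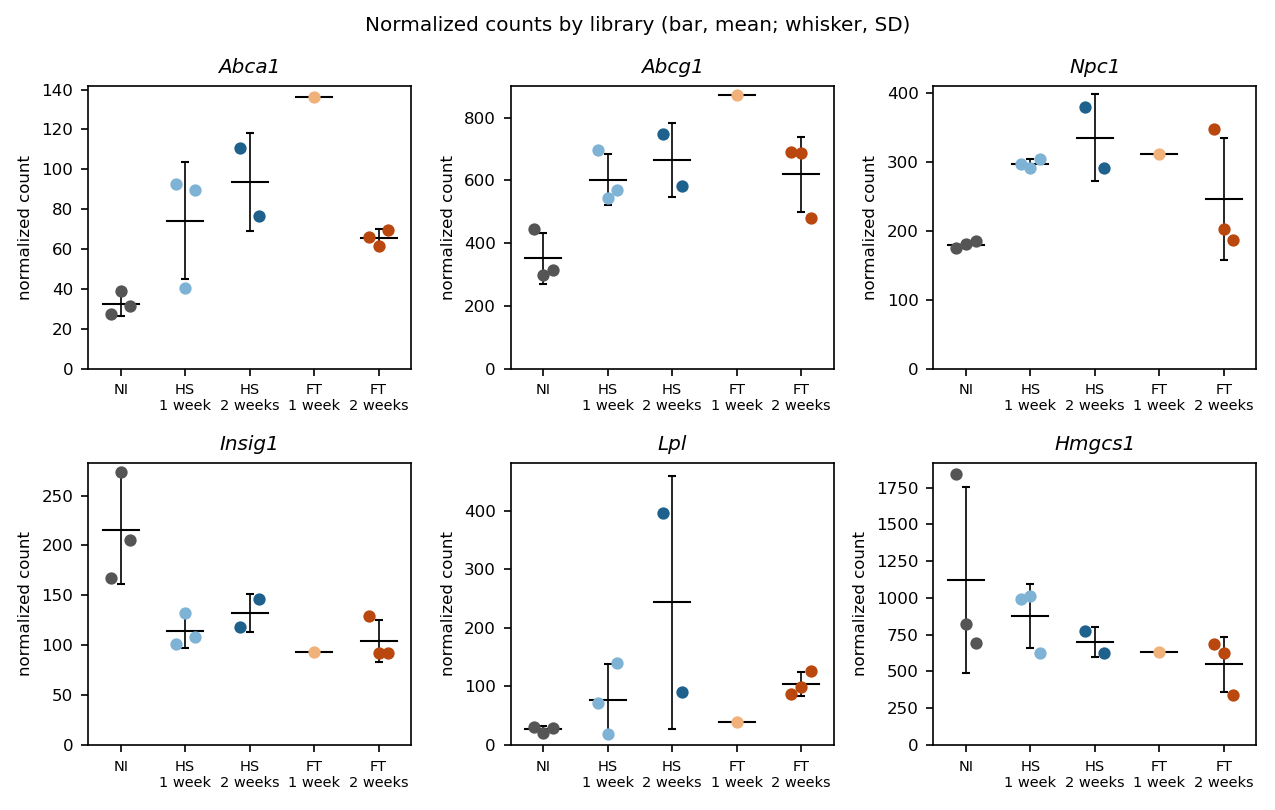
Normalized counts of 6 genes are plotted by group, with 1 point per library, a bar at the mean and a whisker for the SD where a group has more than 1 library. Abca1, Abcg1 and Npc1 lie above the NI points in all 9 injured libraries, Insig1 lies below them, and Hmgcs1 has its highest point (1845) in NI.

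The other genes of this role were less uniform. Nr1h2, which encodes LXR beta, ranged from 33.3 to 37.9 in NI and from 25.9 to 33.03 in injured libraries, so the groups were close although they did not overlap. Nr1h3, which encodes LXR alpha, ranged from 1.51 to 21.9 with as few as 21 reads in a library. Its 4 highest libraries were NI replicate 1 and the 3 libraries of FT 2 weeks, which were also the 4 libraries with the highest pericyte and fibroblast sums (5994 to 11540). Without NI replicate 1, limma-trend called Nr1h3 at FT 2 weeks (adjusted p = 0.0351). Mylip, which encodes a ubiquitin ligase that degrades lipoprotein receptors, ranged from 6.29 to 56.6, lowest in NI replicate 1 and highest in HS 1 week replicate 3, the libraries with the lowest and the highest microglia sum. The part of these marker sums in the values was not tested for Nr1h3 and Mylip. The median log2 fold change of the 5 LXR receptors and efflux genes was 0.21, 0.41, 0.49 and 0.82 in the order given for Abca1, against -0.03, -0.02, -0.02 and -0.01 over all genes tested.

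Insig1 (chr5:28071363-28078662, plus strand) encodes the sterol-regulated anchor of SCAP. In NI, its normalized counts were 167.1, 273.6 and 205.0. They were 101.2, 132.5 and 108.2 at HS 1 week, 118.7 and 146.1 at HS 2 weeks, 93.3 at FT 1 week and 128.9, 92.4 and 92.0 at FT 2 weeks. Every injured library lay below every NI library, and NI replicate 1, where the enzymes were highest, had the lowest NI value. The limma-trend log2 fold changes were -0.89 ± 0.23, -0.67 ± 0.25, -1.17 ± 0.32 and -1.03 ± 0.23 (SE), with adjusted p-values of 0.392, 0.576, 0.18 and 0.251. The edgeR likelihood ratio test called the fall of Insig1 at FT 2 weeks, with a log2 fold change of -1.04 and an adjusted p of 0.0365. That call was lost in 6 of the 11 fits that left out 1 library, namely those without NI replicate 2, NI replicate 3, HS 1 week replicate 1 or any library of FT 2 weeks. With the microglia sum as a covariate, the limma-trend values were -0.89, -0.68, -1.17 and -1.02, with adjusted p-values of 0.0799, 0.212, 0.0581 and 0.0568. Without NI replicate 1 the Insig1 log2 fold changes were -1.06, -0.84, -1.33 and -1.19, and limma-trend called it at FT 2 weeks (adjusted p = 0.0329). In that model limma-trend called 0, 0, 0 and 2 of the 33 genes, against 0.0671%, 0.22%, 0.909% and 2.79% of all genes.

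The other SREBP regulators overlapped between NI and injured libraries. Srebf1, which encodes the SREBP-1 factors, had normalized counts of 73.7, 71.3 and 57.9 in NI, 51.0, 91.2 and 51.9 at HS 1 week, 54.9 and 69.5 at HS 2 weeks, 55.3 at FT 1 week and 83.6, 65.3 and 71.5 at FT 2 weeks. Its limma-trend log2 fold changes were -0.11 ± 0.24, -0.12 ± 0.27, -0.28 ± 0.34 and 0.12 ± 0.24 (SE), with adjusted p-values of 0.815 to 0.962. Srebf2, which encodes SREBP-2, the main activator of the synthesis enzymes, had 58.8, 42.1 and 45.3 in NI, 50.9, 57.5 and 48.0 at HS 1 week, 60.2 and 44.3 at HS 2 weeks, 36.3 at FT 1 week and 58.7, 39.2 and 26.98 at FT 2 weeks. Its log2 fold changes were 0.11 ± 0.27, 0.10 ± 0.30, -0.40 ± 0.38 and -0.28 ± 0.27 (SE), with limma adjusted p-values of 0.733 to 0.972. The directions of the smaller of these values changed with the scaling or the libraries. Scap, which encodes the SREBP escort, ranged from 36.06 to 40.4 in NI, and 3 injured libraries lay above that range (up to 55.4) and 6 below it (down to 23.6). Insig2, a second anchor of SCAP, ranged from 35.5 to 39.3 in NI, and 7 of 9 injured libraries lay above it (up to 55.7) and 1 below (34.7).

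The 16 synthesis enzymes mostly shared their highest libraries, and variation within groups was not compared with variation between groups. Every one of the 16 was highest in NI replicate 1 among the 12 libraries, which held for 8.36% of all genes, and 15 of 16 were at least 1.5 times higher there than in both other NI libraries, against 12.7% of all genes. The ratio of NI replicate 1 to the mean of NI replicates 2 and 3 ranged from 1.66 (Tm7sf2) to 3.35 (Nsdhl). HS 1 week replicate 2 was the second highest library for 15 of 16 enzymes and exceeded both other HS 1 week libraries for 16 of 16. At the other end, FT 2 weeks replicate 3 was the lowest library for 8 of 16. Shares over all genes were not computed for HS 1 week replicate 2 or FT 2 weeks replicate 3. The counts for these libraries therefore cannot be set against all genes. The summed normalized counts of the 16 enzymes were 6563, 2915 and 2609 in NI, 3181, 4610 and 2383 at HS 1 week, 2559 and 2402 at HS 2 weeks, 2468 at FT 1 week and 2669, 2609 and 1843 at FT 2 weeks. Apart from NI replicate 1 and HS 1 week replicate 2, the sums lay between 1843 and 3181 in NI and injured libraries alike. These 2 libraries had the lowest microglia sums, and FT 2 weeks replicate 2, with the next lowest (1193), had an enzyme sum of 2609. The oligodendrocyte sum was 91160 in NI replicate 1, against 54620 and 56950 in the other NI libraries. HS 1 week replicate 1, with the highest oligodendrocyte sum (113000), had an enzyme sum of 3181. The astrocyte sum was highest in HS 1 week replicate 2 (11810). FT 2 weeks replicate 3, with the next highest (8357), had an enzyme sum of 1843. The part of these marker sums in the enzyme sums was not tested.

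**Figure D3:**
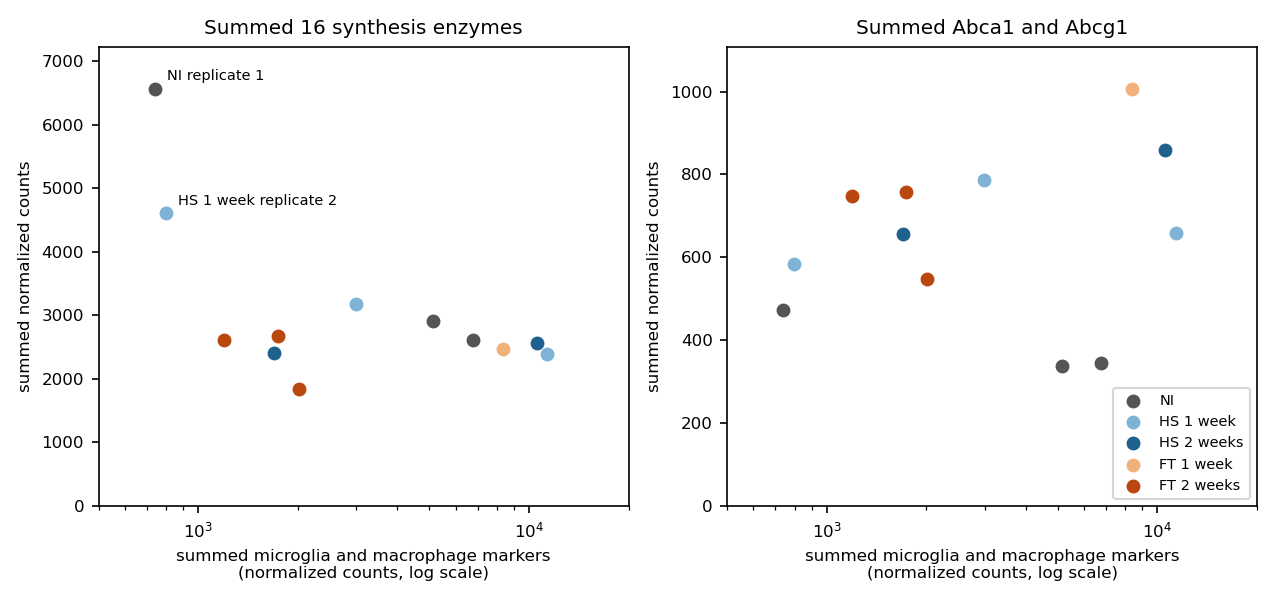
Summed normalized counts of the 16 synthesis enzymes (left) and of Abca1 and Abcg1 (right) are plotted against the summed microglia and macrophage markers on a log axis, with 1 point per library coloured by group. NI replicate 1 (6563) and HS 1 week replicate 2 (4610) stand above the rest on the left, and on the right the 3 NI libraries (336.9 to 472.3) lie below all injured libraries (548.9 to 1007).

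Hmgcs1 (chr13:119690379-119708260, plus strand), which encodes the synthase of the mevalonate precursor, was the most abundant enzyme per length, at 175.5 normalized counts per kb, followed by Fdps at 71.8. Its normalized counts were 1845, 821.9 and 695.9 in NI, 990.3, 1014 and 626.9 at HS 1 week, 773.7 and 626.9 at HS 2 weeks, 633.8 at FT 1 week and 687.0, 622.5 and 337.8 at FT 2 weeks. The FT 1 week library lay below NI, which held for 30.1% of all genes. The 3 libraries of FT 2 weeks also lay below NI, which held for 7.99% of all genes. The HS libraries overlapped with NI. Log2 fold changes from limma-trend were -0.25 ± 0.40, -0.55 ± 0.45, -0.68 ± 0.57 and -0.96 ± 0.40 (SE), with adjusted p-values of 0.909, 0.846, 0.703 and 0.439. The other enzymes up to farnesyl diphosphate were Acat2 (thiolase, 71.1 to 284.0 over the 12 libraries), Mvk (mevalonate kinase, 27.95 to 101.8), Pmvk (phosphomevalonate kinase, 72.4 to 190.1), Mvd (decarboxylase, 24.3 to 91.3), Idi1 (isomerase, 92.9 to 385.4) and Fdps (farnesyl diphosphate synthase, 201.5 to 699.2). For these 7 mevalonate enzymes the log2 fold change was negative in 6 at HS 1 week and in 7 in each of the other comparisons with NI. These signs include NI replicate 1, which was 1.88 (Idi1) to 2.67 (Mvk) times the mean of NI replicates 2 and 3. Group means exceeded the mean of NI replicates 2 and 3 for 15, 4, 7 and 6 of the 16 synthesis enzymes, in the order given for Abca1.

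Fdft1 (chr14:63145150-63179578, minus strand), squalene synthase, catalyses the first step that leads only to sterols. Normalized counts of Fdft1 were 630.4, 236.6 and 201.1 in NI, 213.2, 422.8 and 167.1 at HS 1 week, 186.4 and 185.6 at HS 2 weeks, 184.8 at FT 1 week and 206.1, 232.4 and 176.8 at FT 2 weeks. NI replicate 1 and HS 1 week replicate 2 were far above the other 10 libraries, which ranged from 167.1 to 236.6. Log2 fold changes from limma-trend were -0.33 ± 0.43, -0.74 ± 0.48, -0.75 ± 0.60 and -0.61 ± 0.43 (SE), with adjusted p-values of 0.634 to 0.881. Further down the pathway, Sqle (squalene epoxidase) ranged from 108.2 to 498.1, Lss (lanosterol synthase) from 44.0 to 172.3, Cyp51 (lanosterol demethylase) from 112.5 to 467.6, Nsdhl (sterol dehydrogenase) from 72.6 to 277.2 and Hsd17b7 (sterol ketone reductase) from 51.8 to 185.9. Tm7sf2, a sterol reductase, ranged from 6.72 in the FT 1 week library to 41.9 and varied most among the enzymes (6.24-fold). It was the only enzyme called with the microglia sum as a covariate. The call was at FT 1 week (limma-trend log2 fold change of -1.51, adjusted p = 0.0492) and rests on the single library there. That model called 4.78% of all genes at FT 1 week. Ebp (sterol isomerase, 94.5 to 216.8) and Dhcr7 (the reductase of the last step to cholesterol, 214.5 to 475.9) varied least (2.30-fold and 2.22-fold).

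Over the 18 genes of synthesis and SREBP targets (the 16 enzymes, Insig1 and Stard4), the median log2 fold change was -0.21 at HS 1 week, -0.58 at HS 2 weeks, -0.64 at FT 1 week and -0.62 at FT 2 weeks. The medians over all genes tested were -0.03, -0.02, -0.02 and -0.01. Values were negative for 14, 18, 17 and 18 of the 18 genes. Without NI replicate 1 the medians were 0.18, -0.18, -0.22 and -0.23, and values were negative for 4, 14, 11 and 13 genes, so the direction at HS 1 week turned and the other medians moved toward 0. With the microglia sum as a covariate the medians were -0.20, -0.44, -0.26 and -0.88. Set against the mean of NI replicates 2 and 3, the 16 enzymes had a median ratio of 1.21 at HS 1 week (above 1 for 15), 0.91 at HS 2 weeks (above 1 for 4), 0.89 at FT 1 week (above 1 for 7) and 0.91 at FT 2 weeks (above 1 for 6). Scaling the columns to the same total moved the median of all genes by -0.18, -0.14, -0.25 and -0.12, and relative to it the medians of the 18 genes were -0.21, -0.59, -0.67 and -0.63.

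**Figure D4:**
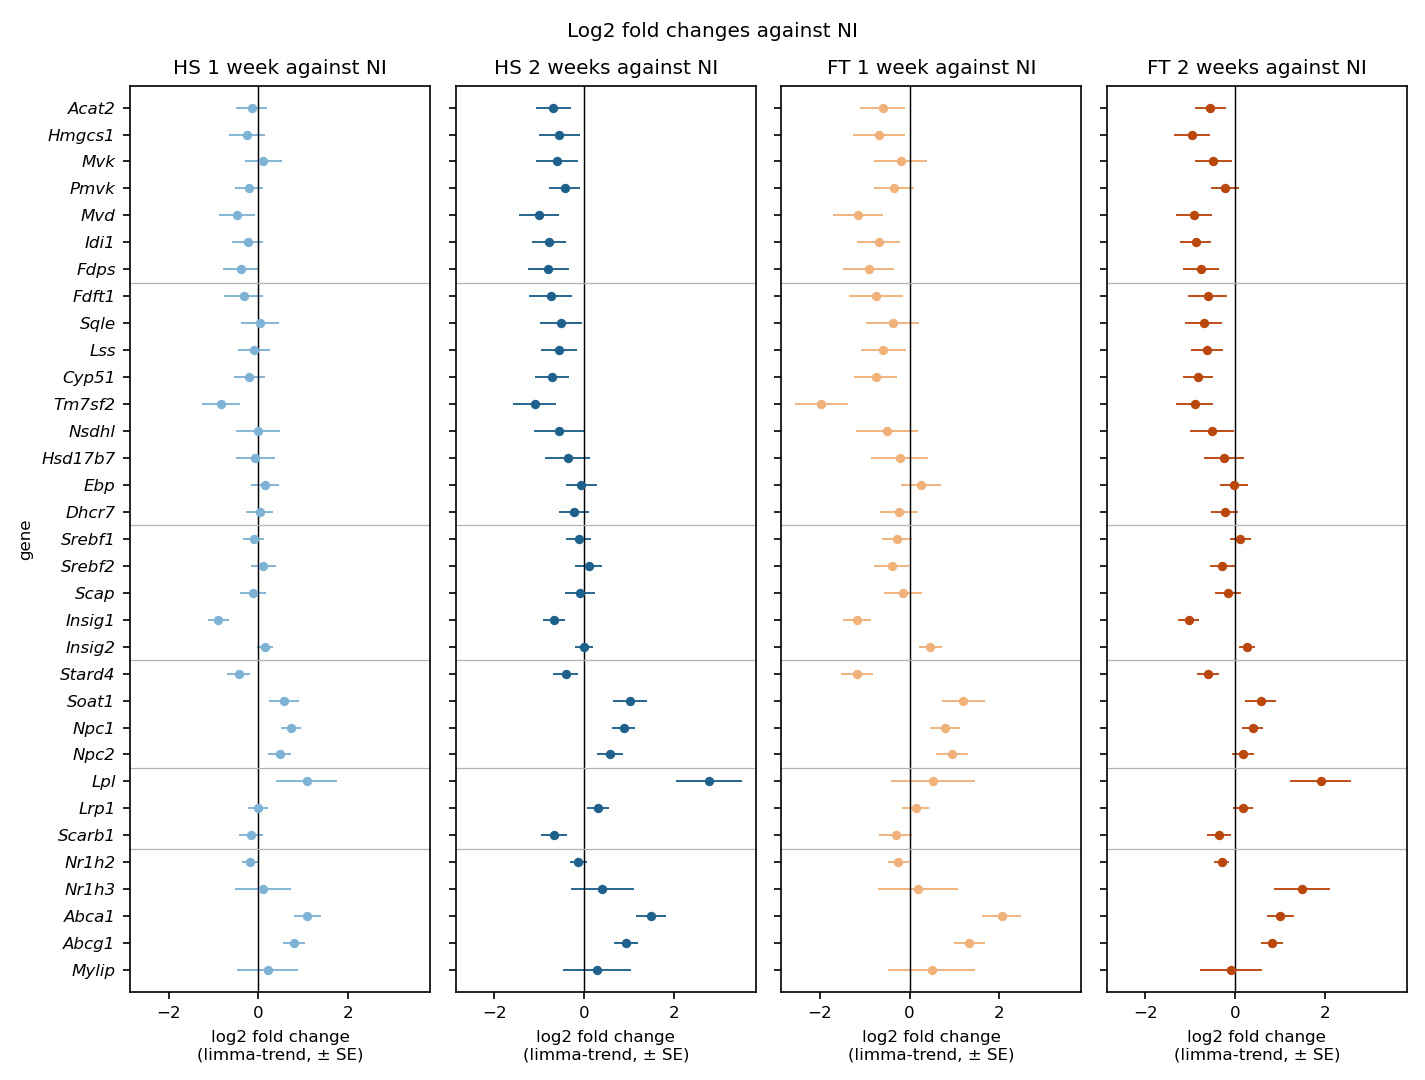
Log2 fold changes against NI from limma-trend are plotted for the 33 genes in the order of their roles, with 1 panel per comparison and bars of 1 SE. The enzymes lie mostly left of 0, Insig1 lies left of 0 in all 4 panels, and Abca1 and Abcg1 lie right of 0 in all 4.

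Genes that move sterols inside the cell differed among themselves. Npc2, a lysosomal protein that hands cholesterol to the exporter Npc1, was the most abundant of them per length (150.4 normalized counts per kb). Its normalized counts were 802.7, 531.0 and 579.2 in NI, 793.8, 896.2 and 918.8 at HS 1 week, 1215 and 726.3 at HS 2 weeks, 1206 at FT 1 week and 664.1, 691.3 and 786.6 at FT 2 weeks. Only 4 of the 9 injured libraries exceeded NI replicate 1, and the limma-trend log2 fold changes were 0.47 ± 0.25, 0.58 ± 0.28, 0.94 ± 0.36 and 0.18 ± 0.25 (SE), with adjusted p-values of 0.689, 0.691, 0.354 and 0.825. Npc1, whose values are given because its groups did not overlap, ranged from 174.8 to 184.7 in NI and from 186.8 to 379.7 in injured libraries, and FT 2 weeks replicate 3 lay just above NI. Soat1, which esterifies cholesterol for storage in droplets, ranged from 34.6 to 143.4, with 8 of 9 injured libraries above NI and its highest value in HS 2 weeks replicate 1, where the microglia sum was 10550. Stard4, a cytosolic sterol carrier, was low (4.70 to 13.5), with 6 of 9 injured libraries below NI.

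Lpl (chr8:68880491-68907448, plus strand) encodes the lipase that releases fatty acids from lipoprotein triglycerides. In NI, normalized counts of Lpl were 31.1, 21.2 and 29.2. They were 71.2, 18.4 and 140.9 at HS 1 week, 397.0 and 90.8 at HS 2 weeks, 38.95 at FT 1 week and 86.3, 99.2 and 126.3 at FT 2 weeks. All injured libraries but HS 1 week replicate 2 lay above NI, and HS 2 weeks replicate 1 was far above HS 2 weeks replicate 2. The limma-trend log2 fold changes were 1.07 ± 0.67, 2.78 ± 0.74, 0.52 ± 0.94 and 1.90 ± 0.67 (SE), with adjusted p-values of 0.719, 0.46, 0.887 and 0.39. The edgeR likelihood ratio test called the rise of Lpl at HS 2 weeks, with a log2 fold change of 3.17 and an adjusted p of 0.00625. That call was lost without HS 2 weeks replicate 1, where Lpl was at 397.0, and without NI replicate 2 or NI replicate 3. With the microglia sum as a covariate, limma-trend gave 1.06, 2.54, -0.16 and 2.30, and called Lpl at HS 2 weeks (adjusted p = 0.0257) and at FT 2 weeks (adjusted p = 0.0384).

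Lrp1, the large endocytic lipoprotein receptor, was the most abundant of the uptake genes per length (11.8 normalized counts per kb). It had normalized counts of 157.0, 224.9 and 198.7 in NI, 161.5, 171.8 and 250.2 at HS 1 week, 259.2 and 217.7 at HS 2 weeks, 210.5 at FT 1 week and 242.1, 196.0 and 217.0 at FT 2 weeks. The groups overlapped throughout. Log2 fold changes from limma-trend were -0.01 ± 0.22, 0.31 ± 0.24, 0.14 ± 0.30 and 0.18 ± 0.22 (SE), with adjusted p-values of 0.786 to 0.998. Scarb1, a receptor for high-density lipoprotein, ranged from 17.1 to 38.5, with 7 of 9 injured libraries below NI.

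Severity and time were compared directly between injured groups, which share the NI libraries as controls. With limma-trend, 0 of the 33 genes were DE between FT and HS at 1 week or 2 weeks, between 2 weeks and 1 week after HS, or between 2 weeks and 1 week after FT. The same test called 0.348%, 0%, 0% and 0.384% of all genes in that order, and 1, 0, 1 and 1 of the 33 genes had an unadjusted p under 0.05, against 5.64%, 2.26%, 1.62% and 9.17% of all genes. The edgeR likelihood ratio test (0.647%, 0%, 0.0061% and 1.12% of all genes), its quasi-likelihood test (0.226%, 0%, 0% and 0.244%) and DESeq2 (0.81%, 0%, 0% and 1.57%) also called 0 of the 33 in each. Abca1 was at 136.3 in the single FT 1 week library, above every library of HS 1 week and FT 2 weeks, but its limma-trend log2 fold changes of 0.96 ± 0.43 against HS 1 week and -1.04 ± 0.43 from 1 to 2 weeks after FT (SE) had adjusted p-values of 0.873 and 0.496. A model with the 2 FT groups alone called Lpl, Nr1h3 and Abca1 between 2 weeks and 1 week, where it called 9.71% of all genes, and it rests on 1 library at 1 week.

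Further genes of the pathway were listed by function. Of 11 SREBP targets of fatty acid synthesis, 0 were called by limma-trend or the edgeR likelihood ratio test in any comparison with NI. Over all genes, limma-trend called 0.0061% to 0.452% and the likelihood ratio test 0.433% to 1.71%. In the order given for Abca1, 0, 2, 2 and 0 of the 11 had an unadjusted limma-trend p under 0.05. The shares of all genes were 7.66%, 7.49%, 11.2% and 10.8%. Median log2 fold changes of the 11 targets were 0.15, 0.05, -0.05 and 0.01 in the same order. Of 18 other genes of sterol handling, limma-trend called 0 and had 1, 6, 5 and 2 at an unadjusted p under 0.05, against 7.66%, 7.49%, 11.2% and 10.8% of all genes. Their medians were 0.14, 0.24, 0.42 and 0.34. The likelihood ratio test called 2 of these 18 genes, Cd36 and Msr1, both scavenger receptors that take up modified lipoproteins, at FT 1 week, where it called 1.67% of all genes. Cd36 was at 114.0 in the FT 1 week library and between 1.30 and 21.6 in the other 11, and its adjusted p against NI was 3.14e-05 with the edgeR likelihood ratio test and 0.0654 with limma-trend. Msr1 was at 66.8 in that library and between 1.82 and 46.0 in the others. Its adjusted p against NI was 0.0309 with the edgeR likelihood ratio test and 0.282 with limma-trend. The calls of Cd36 and Msr1 rest on the single FT 1 week library. The microglia sum was 8356 in the FT 1 week library, and its part in these values was not tested.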

How the data were processed

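Per the labels, eGFP+ cells were sorted by flow cytometry and polyA RNA was sequenced in 12 libraries of 5 groups. Reads were mapped to GRCm38 (TopHat2 2.0.9), assigned to genes (HTSeq 0.5.4p3), filtered for low counts and scaled between libraries (edgeR 3.3.6) by the authors. The deposited signal values are the resulting normalized counts, and dividing each column by its smallest step returned whole reads within 0.001 for 100% of values. No column lacked a sample.

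Log2 of these values plus 1 was fitted with limma-trend (limma 3.58.1, R 4.3.3) on 16388 genes whose mean reached 0.5 in any group, in 1 model with a term per group. P-values are two-sided and adjusted over all genes by Benjamini-Hochberg. FT 1 week had 1 library, whose spread is assumed to equal that of the other groups. The quasi-likelihood and likelihood ratio tests of edgeR 4.0.16 and DESeq2 1.42.0 were run on the recovered reads. Depth was 8270643 to 15562378 reads per library, and each of the 33 genes had at least 21 reads in every library. The strand used in counting is not given in the sources used here, so antisense reads cannot be told apart.

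The 33 genes and all lists were chosen with earlier results of these data known, and lists are described by counts and medians without a test. Values in every library are given for Abca1, Abcg1, Srebf1, Srebf2, genes called by limma-trend or the likelihood ratio test against NI, and the gene of each of 6 roles with the highest mean per kb of exon (GENCODE, GRCm38). The other genes are given by ranges, and of other pathway genes only called ones are named. Npc1 was given in more detail after its values were seen. Promoters are 250 bases before the RefSeq start. Alternatives were other pseudocounts (0.25 and 4), filters, scalings, weights, covariates, models and tests, and leaving out each library.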

Additional observations from a re-analysis of the deposited data

How the results depend on the processing

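The counts of DE genes among the 33 depended on the test. Against 0 with limma-trend, array quality weights called 5 at HS 1 week, 5 at FT 1 week and 4 at FT 2 weeks, where they called 7.73%, 5.66% and 8.83% of all genes. The microglia sum as covariate called 1, 2, 3 and 2 at HS 1 week, HS 2 weeks, FT 1 week and FT 2 weeks. That model called 0.799%, 1.2%, 4.78% and 0.714% of all genes in the same order. The edgeR likelihood ratio test called 2, 1 and 1 at HS 2 weeks, FT 1 week and FT 2 weeks, against 0.488%, 1.67% and 1.71%. DESeq2 called 2, 2 and 1 there, against 0.703%, 2.56% and 2.2% of the genes it tested. A model of only the compared groups called 1 at FT 2 weeks (0.0856% of all genes) and 3 between 2 weeks and 1 week after FT (9.71%). Leaving out 1 library at a time, limma-trend called 0 to 1 at FT 1 week (1 without HS 1 week replicate 2, against 0.574% of all genes) and 0 to 2 at FT 2 weeks (2 without NI replicate 1, against 2.79%), and the likelihood ratio test, repeated in this way after the data were seen, called 0 to 1 at HS 1 week, 0 to 3 at HS 2 weeks, 1 to 3 at FT 1 week and 0 to 3 at FT 2 weeks, where it called 0.171% to 1.75%, 0.159% to 1.87%, 1.03% to 2.82% and 0.232% to 7.24% of all genes. Its calls at HS 2 weeks came to 0 without NI replicate 2, NI replicate 3 or HS 2 weeks replicate 1, and to 1 without NI replicate 1. Its call of Abca1 at FT 1 week was made in each of these 11 fits, all of which keep the single FT 1 week library that it rests on. Its call at FT 2 weeks came to 0 without NI replicates 2 or 3, HS 1 week replicate 1 or any FT 2 weeks replicate. The cause was not tested.

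Genes with no overlap between injured and NI libraries numbered 1 higher and 2 lower with columns scaled to the same total (0.958% and 2.07% of all genes), 5 higher and 2 lower without NI replicate 1 (7.24% and 7.4%), and 5 higher and 5 lower without HS 1 week replicate 2 (2.42% and 1.4%), against 1.97% and 0.995% with all libraries. These were chosen after the data were seen.

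The median log2 fold change of the 5 LXR receptors and efflux genes moved at HS 1 week to 0.01 with same-total scaling and 0.84 with array weights. At HS 2 weeks it moved to 0.22 with a pseudocount of 4, 0.89 with array weights, 0.67 with the microglia covariate, 0.66 with a replicate block, 0.16 with either edgeR test and 0.18 with DESeq2. At FT 1 week it moved to 0.21 with same-total scaling, 0.92 with the microglia covariate, 0.19 and 0.20 with the edgeR quasi-likelihood and likelihood ratio tests and 0.22 with DESeq2. Leaving out 1 library gave 0.21 to 0.90 at HS 1 week, 0.41 to 1.11 at HS 2 weeks and 0.49 to 0.98 at FT 1 week. The median of the 18 synthesis genes ranged from -0.38 to 0.18 at HS 1 week, -0.83 to -0.18 at HS 2 weeks, -0.88 to -0.22 at FT 1 week and -0.90 to -0.23 at FT 2 weeks when 1 library was left out, nearest to 0 or above it without NI replicate 1.

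Of 980 values of single genes under alternatives, 926 kept direction and call, 30 were newly called and 24 turned direction. Those that turned were small. They were Lpl at FT 1 week (-0.16 with the microglia covariate), Srebf1 at FT 2 weeks (-0.02 with same-total scaling, -0.00 with the microglia covariate), Srebf2 (-0.10 at HS 1 week and -0.07 at HS 2 weeks with same-total scaling, -0.03 at HS 2 weeks with a replicate block), Hmgcs1 at HS 1 week (0.20 with array weights) and Lrp1 (0.01 at HS 1 week with median-of-ratios scaling and both edgeR tests, 0.02 with DESeq2, and -0.16 with same-total scaling and -0.06 with the microglia covariate at FT 1 week). Leaving out 1 library gave -0.38 to 0.03 (HS 1 week) and -0.29 to 0.05 (HS 2 weeks) for Srebf1, -0.12 to 0.31 (HS 2 weeks) for Srebf2, -0.52 to 0.18 for Hmgcs1 and -0.72 to 0.18 for Fdft1 (both HS 1 week), and -0.20 to 0.11 (HS 1 week) and -0.01 to 0.25 (FT 1 week) for Lrp1. Where a fit left 1 library in a group, it was assumed to vary like the others.

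With the replicate number as a block, 0 of the 33 genes were called at HS 1 week, HS 2 weeks and FT 2 weeks, as without it. Libraries with the same number correlated between -0.521 and 0.772 in their deviations from the group means. These correlations cannot decide whether the numbers pair the libraries, because the groups are small and their libraries differ in marker sums. FT 1 week has 1 library and no block fit. Groups of 1 to 3 libraries limit what can be called.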
